A study of Mus musculus with 12 samples.

Results

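The genes described here are 10 genes of MHC class I antigen presentation and of the immunoproteasome, taken by name out of 25793 genes in the deposited count table. They are the class I heavy chains H2-K1 and H2-D1, the light chain B2m, the peptide transporter subunits Tap1 and Tap2, the loading factor Tapbp (tapasin), the inducible proteasome subunits Psmb8, Psmb9 and Psmb10, and the regulator Nlrc5. All 10 were found in both the count and the FPKM table, and they were listed by name, not picked by their values. The series asks what PD-1, the inhibitory receptor made from Pdcd1, does for where follicular helper T (Tfh) cells settle and how they work. Tfh cells are the CD4 T cells that help B cells in germinal centres.

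RNA was sequenced from 12 libraries of CD4+ CXCR5-high GFP+ OT-II T cells of C57BL/6 background, 6 of them wild type (WT, Pdcd1+/+) and 6 homozygous for a knock-in allele (KI, Pdcd1KI/KI). What the knock-in changes in the gene is not given in the sources used here, nor are the age and sex of the mice. In both genotypes the cells carried the OT-II receptor, which recognises an ovalbumin peptide, and a GFP transduction. They were moved into B6 recipients with MD4 B cells, which bind hen egg lysozyme, and taken from lymph nodes on day 5 after HEL-OVA with LPS and alum. The comparison thus concerns donor cells of 1 receptor specificity in recipients that were not themselves knock-in. Each library came from 100 to 200 sorted cells whose polyadenylated RNA was amplified. A library title holds the genotype and a pair of numbers, a first number of 1 or 2 and a second of 1, 2 or 3, so that KI 2-1 has first number 2. The labels do not say what the numbers mean or whether libraries came from separate animals. Each first number holds 3 WT and 3 KI libraries, and p-values measure only the spread between these libraries, which may be technical.

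Class I molecules carry short peptides from the inside of a cell to its surface, where CD8 T cells and NK cells read them. The proteasome cuts proteins into peptides, the TAP transporter pumps these into the endoplasmic reticulum, and tapasin holds an empty class I molecule next to TAP until a peptide is bound. Lymphocytes express the pathway constitutively and raise it under interferon, in part by replacing the catalytic proteasome subunits with inducible ones and through NLRC5, a transactivator of class I genes.

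Total gene counts ran from 717506 in WT 1-3 to 1801504 in KI 2-2. Pdcd1, the gene carrying the knock-in, ran from 166 to 523 CPM (counts scaled by library size and TMM factor) in WT and from 21.5 to 130 CPM in KI, without overlap. Its log2 fold change was -2.05 ± 0.42 (SE), and the edgeR adjusted p of 0.231 became 7.6e-06 with the first number in the model. Summed T cell markers stood at 4857 to 6405 CPM and follicular helper markers at 1635 to 2517 CPM, with every marker of both lists detected. Summed B cell markers stood at 117 to 346 CPM with Pax5 at 0 in all 12 libraries, and summed myeloid and dendritic markers at 361 to 676 CPM with Itgax and Batf3 at 0. Of that myeloid sum Ctss gave 338 to 479 CPM and the other 9 markers together 3.10 to 249 CPM.

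In the NCBIM37 assembly 7 of the 10 genes lie on chromosome 17, in or next to the major histocompatibility complex. Tap1 (chr17:34324498-34334170, plus strand), Psmb8 (chr17:34334666-34338399, plus) and Tap2 (chr17:34340472-34353266, plus) follow one another, and Psmb9 (chr17:34318932-34324697, minus) overlaps the first bases of Tap1 on the other strand. GENCODE vM1 lists Psmb9 as 2 gene entries at this locus. Tapbp (chr17:34052844-34066235, plus), H2-K1 (chr17:34132962-34137278, minus) and H2-D1 (chr17:35399675-35404444, plus) lie on either side. B2m is on chromosome 2 (chr2:121973422-121978819, plus), and Psmb10 (chr8:108459628-108462292, minus) and Nlrc5 (chr8:96996663-97051172, plus) are on chromosome 8. GENCODE vM1 types 9 of the 10 as protein coding and Nlrc5 as a lincRNA in this release. Since no use of strand is stated, reads from the overlap of Tap1 and Psmb9 or of B2m and Patl2 may not be told apart. The same holds for Psmb8 or Tap2 and Gm20496, for Tap2 and Gm15821, and for Psmb10 and Gm16156. Tapbp overlaps Zbtb22 on the same strand, so reads from that overlap could not be told apart by strand. How far this overlap bears on the Tapbp counts was not tested.

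The stretches around the starts of the class I genes are shown because those of H2-K1 and H2-D1 are closely similar, while their transcripts differed in their pattern over the libraries. The sequences are from the RefSeq promoter table (GRCm38.p6), 5′ to 3′ on the gene's strand, and each was found once, without a change, at the NCBIM37 position given. The H2-K1 stretch runs 26 or 12 bases past the start, by which of its RefSeq starts is taken. The other stretches end before the RefSeq start of the gene they are named for. By the GENCODE vM1 loci given above, the H2-D1 stretch lies inside its gene and the B2m stretch ends on the first base of B2m. Capitals mark matches on either strand to 5 motifs: a kappaB site (the first capitals of the H2-K1 stretch), an interferon regulatory factor core (GAANNGAAA), an interferon-stimulated response element (ISRE, the same core with a further A before NN), site alpha (TGACGC) and the Y box (TGATTGG). The ISRE and the core can overlap on a sequence that holds both.
H2-K1, chr17:34137266-34137415, minus strand: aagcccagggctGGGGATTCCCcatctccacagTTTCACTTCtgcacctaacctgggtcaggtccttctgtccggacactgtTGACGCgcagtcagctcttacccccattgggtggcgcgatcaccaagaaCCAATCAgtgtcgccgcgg
H2-D1, chr17:35399856-35400004, plus strand: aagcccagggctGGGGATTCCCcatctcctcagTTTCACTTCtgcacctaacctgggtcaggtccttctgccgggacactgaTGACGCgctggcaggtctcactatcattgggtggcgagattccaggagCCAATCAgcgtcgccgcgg
B2m, chr2:121973272-121973422, plus strand: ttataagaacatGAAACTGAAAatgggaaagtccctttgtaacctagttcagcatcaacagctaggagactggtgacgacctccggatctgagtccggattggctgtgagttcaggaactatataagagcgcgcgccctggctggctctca
Tap1 (the stretch shared with Psmb9), chr17:34324255-34324309, plus strand: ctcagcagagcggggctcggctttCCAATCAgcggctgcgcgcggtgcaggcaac

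In H2-K1 and H2-D1 the kappaB site, the interferon regulatory factor core, site alpha and the Y box stood in the same order, and 133 of 150 aligned bases of these stretches were identical (88.7%). The B2m stretch held an ISRE and none of the other 4 motifs in its window. One Y box lay upstream of the RefSeq starts of both Tap1 and Psmb9, at position -10 from that of Psmb9 (start = 0) and -222 from that of Tap1. These RefSeq starts differ from the gene ends in GENCODE vM1 given above. The windows of Tapbp, Psmb8 and Psmb10 held none of the 5 motifs, and Tap2 and Nlrc5 were not in the table. Motifs were searched in windows of 300 bases around each start. Over all 32851 such windows, the kappaB site was found in 0.11%, the ISRE in 3.44%, site alpha in 7.4%, the interferon regulatory factor core in 7.52% and the Y box in 7.82%. A match describes the letters only.

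Per length, in the authors' FPKM, the light chain was the most abundant transcript of the group in all 12 libraries. B2m had a median of 6909 FPKM (range 4140 to 11341), H2-K1 2769 (2124 to 4153), Psmb8 920 (654 to 1288) and H2-D1 665 (475 to 812). Psmb10 came next with 161 FPKM (117 to 281), and each of these 5 FPKM levels was above the next in every library. In CPM per kilobase of exon the order of Psmb8 and H2-D1 was not resolved, with medians of 560 and 570 and Psmb8 higher in 6 of 12 libraries. Psmb9 with 60.8, Tap1 with 58.9 and Tapbp with 43.8 FPKM lay close together on that scale, and Psmb9 exceeded Tap1 in only 5 of 12 libraries. Nlrc5 followed with 13.5 FPKM (7.82 to 23.96). In CPM per kilobase the medians were 55.0 for Tapbp, 44.7 for Tap1, 19.3 for Nlrc5 and 18.6 for Psmb9, so the order of these 4 depends on the measure.

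Tap2, the partner of Tap1 in the transporter, was the one gene of the 10 that did not pass the count filter. Its raw counts ran from 0 to 10 with a median of 3, and its FPKM from 0 to 2.22. A count of 0, seen in WT 2-2 and KI 2-1, allows up to 3 counts. Tap1 was measured at 45.9 to 104 FPKM in the same libraries. The listed levels of the transporter pair were thus far apart in every library. In GENCODE vM1 Tap2 overlaps Gm20496 and Gm15821 on the other strand, and how far such overlaps lower its count was not tested.

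The heavy chains H2-K1 and H2-D1 are close relatives, and the count table holds reads aligned to more than 1 place apart from the genes. Of the 50-base windows of its coding transcripts, H2-K1 shared 8.87% with another gene and H2-D1 14.3%, so both may be undercounted and their levels relative to each other are uncertain. The median of FPKM per CPM was 1.34 for H2-K1 and 0.437 for H2-D1 although their exons together span 2608 and 2588 bases, so the ratio between them depends on the table used. Counts entered as aligned to more than 1 place made up 26.7% to 43.8% of all counts, assigned and unassigned, with WT 1-3 at 43.8% and KI 2-1 at 34.3%.

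**Figure D1:**
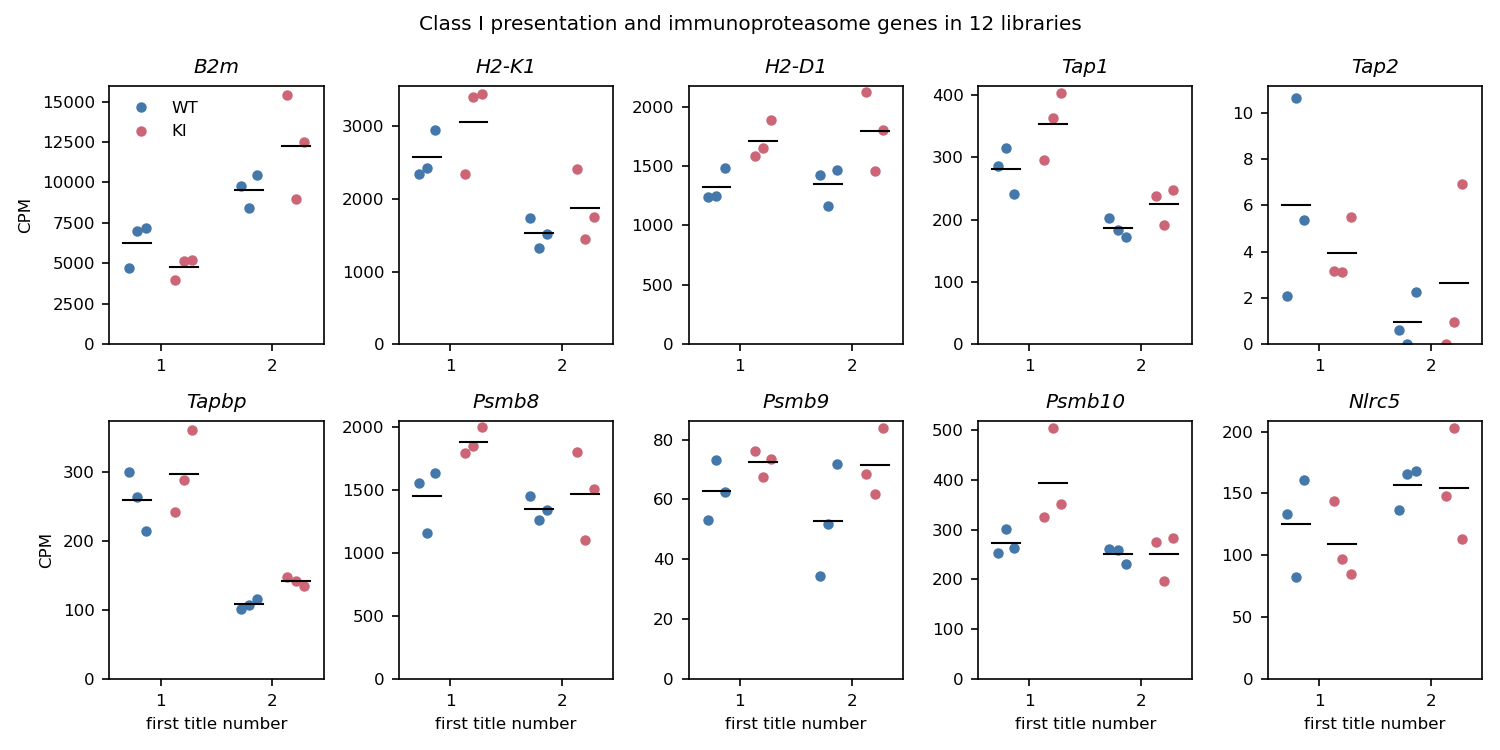
Each panel plots 1 gene in CPM (TMM-scaled counts, linear axis from 0) for the 12 libraries, by first title number, with WT in blue, KI in red and a bar at the mean of 3 libraries. B2m is higher and Tapbp lower in all 6 libraries of first number 2, while WT and KI overlap in every panel when both first numbers are pooled. Within 1 first number, at 3 against 3 libraries, WT and KI do not overlap for H2-D1, Psmb8 and Psmb10 (first number 1) and for Tapbp (first number 2). The share of all genes that separate in this way was not counted, so no genotype difference is read from these separations.

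The genotype comparison found no class I or immunoproteasome transcript that passed the test. In KI against WT, edgeR's quasi-likelihood test with Benjamini-Hochberg adjustment called 0 of the 9 genes that could be tested, against 0.0265% of all 7542 genes tested (2 genes). At an unadjusted p under 0.05 there was 1 of the 9, H2-D1, and 407 of the 7542. The point estimates of 8 of the 9 were above 0, compared with 51.6% of all genes tested, and their median log2 fold change was 0.27 beside 0.02 over all genes. With an offset for GC content, described further on, that median was 0.18, and 0.15 with one for GC and exon length. None of the 9 separated WT from KI without overlap in CPM, as 0.371% of all tested genes did.

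H2-D1, a classical heavy chain, came nearest to the threshold. In WT it ran from 1163 to 1485 CPM with a median of 1338, and in KI from 1461 to 2125 CPM with a median of 1724. The WT and KI libraries overlapped only where WT 1-3 (1485 CPM) and WT 2-3 (1464 CPM) exceeded KI 2-2 (1461 CPM). The log2 fold change was 0.39 ± 0.16 (SE) and its 95% interval 0.05 to 0.73. Its edgeR adjusted p was 0.917, and 0.433 with the first number in the model (0.39 ± 0.14 SE). The unadjusted p was at or above 0.05 in 10 of 28 alternatives, among them both offsets for base composition, each first number alone, and leaving out WT 1-1, WT 1-2, WT 2-2, KI 1-3 or KI 2-1. Over the alternative analyses the adjusted p ran from 0.433 to 0.998 and the estimate from 0.28 to 0.44. In the authors' FPKM the groups did not overlap, with WT at 475 to 661 and KI at 669 to 812, as did 0.203% of the 9378 genes with a mean FPKM of at least 1. The limma test of those FPKM values gave 0.43 ± 0.14 (SE) and an adjusted p of 0.860. By first number, the CPM difference was 0.36 in first number 1 and 0.41 in first number 2.

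H2-K1 ran from 1321 to 2944 CPM in WT (median 2036) and from 1448 to 3444 CPM in KI (median 2374). The genotypes overlapped over most of this range, and the log2 fold change was 0.27 ± 0.24 (SE, edgeR adjusted p 0.947). Tap1 gave 0.31, Tapbp 0.26, Psmb8 0.26, Psmb9 0.32 and Psmb10 0.30 on the log2 scale, with 95% intervals that all included 0. The intervals ended at 0.77 for Tap1, 0.92 for Tapbp, 0.63 for Psmb8, 0.84 for Psmb9 and 0.73 for Psmb10. A rise in KI larger than these values lies outside the intervals, which come from the model of genotype alone. With the first number added, Tap1 stood at 0.30 ± 0.15 (SE, edgeR adjusted p 0.606) and Tapbp at 0.29 ± 0.16 (0.667). Psmb8 then stood at 0.25 ± 0.15 (0.703), Psmb9 at 0.33 ± 0.24 (0.741) and Psmb10 at 0.27 ± 0.17 (0.704). With genotype alone in the model, Nlrc5, the transactivator, had the one estimate below 0, at -0.10 (interval -0.61 to 0.41). For Tap2 the difference on log2(CPM + 1) was 0.09 (exact permutation p = 0.916, two-sided).

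B2m gave no single direction. Its log2 fold change in KI was 0.11 ± 0.30 (SE, edgeR adjusted p 0.975) over all libraries, -0.40 among libraries of first number 1 and 0.36 among those of first number 2. Among libraries of first number 1, WT had 4685, 6976 and 7157 CPM and KI 3954, 5145 and 5216 CPM. Among those of first number 2, WT had 9794, 8404 and 10491 CPM and KI 15391, 8974 and 12487 CPM. The test of this difference of differences gave B2m 0.76 ± 0.34 (SE) and an edgeR adjusted p of 0.668, which did not pass. The interaction test called 0 of the 9 genes and 0% of all 7542 genes tested with edgeR (544 at an unadjusted p under 0.05, and 7 genes by DESeq2 after adjustment).

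**Figure D2:**
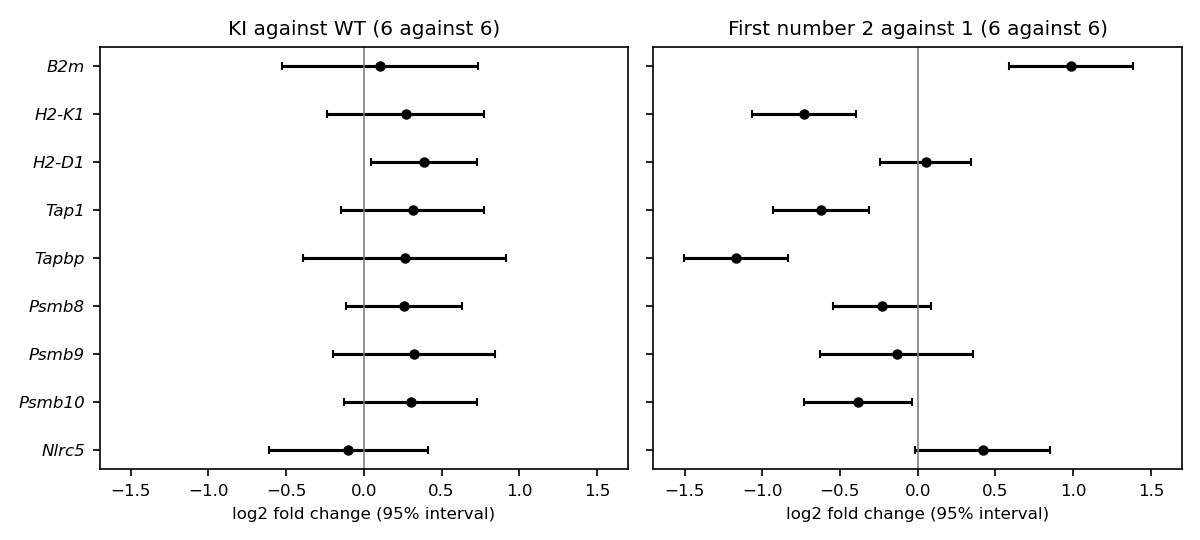
Points are edgeR log2 fold changes of the 9 tested genes and bars their 95% intervals. The left shows KI against WT with genotype alone in the model. The right shows first number 2 against 1 with genotype in the model. On the left every interval but that of H2-D1 includes 0, while on the right B2m lies at 0.99 and Tapbp at -1.17.

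Between the first title numbers the class I genes differed from each other in direction. With genotype in the model, 4 of the 9 tested genes passed in first number 2 against 1, beside 16% of all tested genes. B2m was higher in first number 2, against a background of 8.47% of genes called higher, and Tapbp, H2-K1 and Tap1 were lower, against 7.54% called lower. The median log2 fold change of the 9 was -0.23 beside 0.01 over all genes, and 3 of the 9 were above 0, as were 50.4% of all genes. For 2 of the 9, B2m and Tapbp, the CPM values did not overlap between first numbers, as for 6.48% of all tested genes.

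B2m ran from 3954 to 7157 CPM in first number 1 (median 5180) and from 8404 to 15391 CPM in first number 2 (median 10143). Every library of first number 2 exceeded every library of first number 1. The log2 fold change was 0.99 ± 0.19 (SE, edgeR adjusted p 0.0015). B2m alone made up 0.444% to 0.626% of all counts in first number 1 and 0.887% to 1.32% in first number 2.

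Tapbp, the tapasin gene, moved the other way. It ran from 215 to 361 CPM in first number 1 (median 277) and from 102 to 148 CPM in first number 2 (median 125). These CPM values did not overlap, and the log2 fold change was -1.17 ± 0.16 (SE, edgeR adjusted p 7.85e-05). In FPKM the ranges touched, at 43.7 to 97.2 and 28.7 to 43.9, and B2m was then the 1 gene of the 9 without overlap, beside 4.19% of genes with a mean FPKM of at least 1.

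H2-K1 ran from 2334 to 3444 CPM in first number 1 (median 2684) and from 1321 to 2415 CPM in first number 2 (median 1626). The single library that broke the separation was KI 2-1, at 2415 CPM. The log2 fold change was -0.73 ± 0.16 (SE, edgeR adjusted p 0.0037). Tap1 ran from 242 to 403 CPM in first number 1 and from 173 to 248 CPM in first number 2, and its log2 fold change was -0.62 ± 0.15 (SE, edgeR adjusted p 0.0070). On the authors' FPKM, limma gave Tap1 -0.55 with an adjusted p of 0.0799, so that call was lost there.

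Within 1 genotype, at 3 against 3 libraries, Tapbp was called in both WT and KI. B2m was called in KI alone and stood at 0.58 in WT alone (edgeR adjusted p 0.0942), H2-K1 was called in WT alone and stood at -0.71 in KI alone (0.118), and Tap1 was called in neither, at -0.62 and -0.65.

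The other 5 tested genes did not pass. H2-D1 stood at 0.05 with an interval of -0.24 to 0.35, and the 3 inducible proteasome subunits at -0.38 for Psmb10, -0.23 for Psmb8 and -0.14 for Psmb9. Nlrc5 stood at 0.42 (interval -0.02 to 0.85, edgeR adjusted p 0.184). Tap2 differed by -1.38 on log2(CPM + 1), with an exact permutation p of 0.0325 (two-sided). That value rests on counts of at most 10, and leaving out any 1 of 7 libraries raised its p above 0.05, to 0.0693 at most.

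Ratios of genes within a library do not depend on how libraries are scaled, but they do depend on a library's trend with GC where the genes differ in base composition. The number of H2-K1 counts per H2-D1 count ran from 1.48 to 2.06 in first number 1 (median 1.92) and from 0.971 to 1.21 in first number 2 (median 1.09), without overlap. The mean log2 difference was -0.78, with an exact permutation p of 0.0022 (two-sided), the smallest that 924 splits allow, and 0.0087 after adjustment over 4 ratios. In FPKM the same ratio ran from 4.14 to 6.00 and from 3.33 to 4.06, a log2 difference of -0.50 (exact permutation, adjusted p 0.0087). Between WT and KI this ratio differed by -0.13 (exact permutation, adjusted p 0.608). The light chain per heavy chain moved the opposite way, with 1.51 to 2.88 B2m counts per H2-K1 count in first number 1 and 5.64 to 7.15 in first number 2. How many of all gene pairs separate in this way was not counted, for this ratio or for H2-K1 to H2-D1. Of single genes, 6.48% of those tested did so in CPM. B2m and H2-K1 differ in exon GC content (41.2% and 54.4%). The difference between their log2 fold changes, first number 2 against 1, was 1.72, and 0.69 with the offset for GC described further on, while for H2-K1 and H2-D1 it was -0.78 and -0.72.

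Each inducible proteasome subunit takes the place of a constitutive one, Psmb8 that of Psmb5, Psmb9 that of Psmb6 and Psmb10 that of Psmb7. Counts of Psmb8 were 6.70 to 12.3 times those of Psmb5 in WT and 6.76 to 9.99 times in KI. Counts of Psmb9 were 0.183 to 0.492 times those of Psmb6 in WT and 0.233 to 0.351 times in KI. Psmb10 counts were 2.05 to 7.08 times those of Psmb7 in WT and 2.50 to 11.8 times in KI. These counts are not corrected for length, so the ratios do not give the proportions of the subunits. In the authors' FPKM the medians over all 12 libraries were 920 for Psmb8 and 189 for Psmb5. They were 60.8 for Psmb9 and 155 for Psmb6, and 161 for Psmb10 and 42.0 for Psmb7. None of the 3 count ratios differed between genotypes past the threshold, and each adjusted p was 0.608 by the exact permutation test over 4 ratios. Between first numbers the Psmb10 to Psmb7 ratio was lower in first number 2, where it lay between 2.05 and 4.81, than in first number 1, where it lay between 4.52 and 11.8. Its log2 difference was -1.07 (exact permutation p = 0.0043, 0.0087 adjusted), while Psmb8 to Psmb5 differed by -0.31 (0.115 adjusted) and Psmb9 to Psmb6 by -0.17 (0.491 adjusted). Exon GC content is 56.5% for Psmb10 and 48.3% for Psmb7, and with the GC offset the difference between their fitted log2 fold changes went from -1.08 to -0.50. For Psmb9 and Psmb6 it changed sign, from -0.12 to 0.08.

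**Figure D3:**
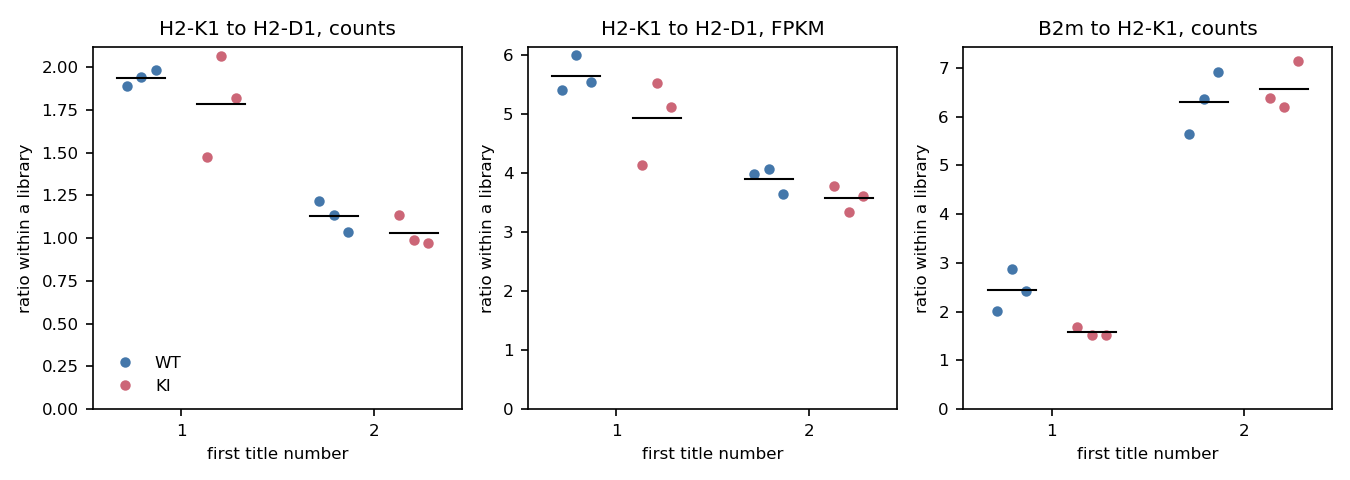
Ratios within each of the 12 libraries are plotted by first title number, with WT in blue, KI in red and a bar at the mean of 3 libraries. H2-K1 per H2-D1 is lower in first number 2 in counts (0.971 to 1.21 against 1.48 to 2.06) and in FPKM, and B2m per H2-K1 is higher.

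Base composition moved with the difference between first numbers. Across 7236 genes with exon sequence (95.9% of those tested), the log2 fold change of first number 2 against 1 had a Pearson r of -0.58 with exon GC content. Genes are not independent replicates, and all share the same 12 libraries. In 4 equal groups of genes from low to high GC, the median log2 fold change was 0.63, 0.19, -0.19 and -0.45. B2m has an exon GC content of 41.2%, and the other 9 genes lie between 52.9% and 57.2%. H2-K1 (54.4%) and H2-D1 (53.5%) are nearly alike in it.

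An offset that removes each library's trend with GC was added after the data had been seen. With it, 1 of the 9 genes passed in first number 2 against 1, beside 5.97% of all tested genes, and that gene was Tapbp at -0.72 ± 0.16 (SE, edgeR adjusted p 0.0080). B2m came to 0.27 (edgeR adjusted p 0.514), H2-K1 to -0.42 (0.114) and Tap1 to -0.32 (0.195). Psmb8, Psmb9 and Psmb10 changed sign, to 0.04, 0.14 and 0.03. H2-D1 came to 0.30 and Nlrc5 to 0.63, with adjusted p of 0.236 and 0.0925. An offset for GC and exon length together also called 1 of the 9, beside 5.95% of all genes. In KI against WT the r with GC was 0.22, and with the offset H2-D1 stood at 0.31 (edgeR adjusted p 0.814) and B2m at 0.28 (0.884).

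Markers of cytotoxic T and NK cells, which also express class I genes, moved with the first number as well. Their sum over 10 markers was 48.4 to 211 CPM in first number 1 and 284 to 713 CPM in first number 2, with Ncr1 at 0 in every library. All 4 testable markers were called higher, beside 8.47% of all tested genes. Of 9 follicular helper markers 2 were called higher and 2 lower, among them Pdcd1 at -1.56 (edgeR adjusted p 8.4e-05). Of 8 tested T cell markers 1 was called higher, as was 1 of 5 tested MHC class II genes. B cell and myeloid markers had 0 calls. In bulk libraries, more cells of a type and more RNA per cell cannot be told apart. The part of the cytotoxic T and NK cell markers in the differences of B2m, Tapbp, H2-K1 and Tap1 was not tested. The meaning of the first number cannot be told apart from any other property that the libraries of one number share.

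**Figure D4:**
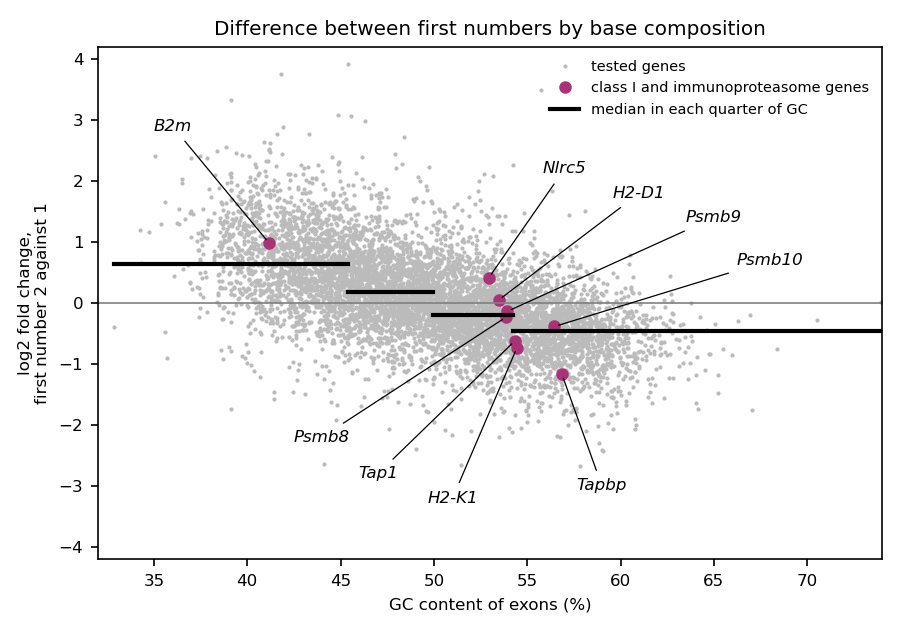
Each grey point is a tested gene by exon GC content (percent) and log2 fold change of first number 2 against 1, purple points are the 9 tested class I and immunoproteasome genes, and black bars are medians in 4 equal groups of genes by GC. B2m sits among the low-GC genes that are higher in first number 2, and the other genes lie at 52.9% GC or above.

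**Figure D5:**
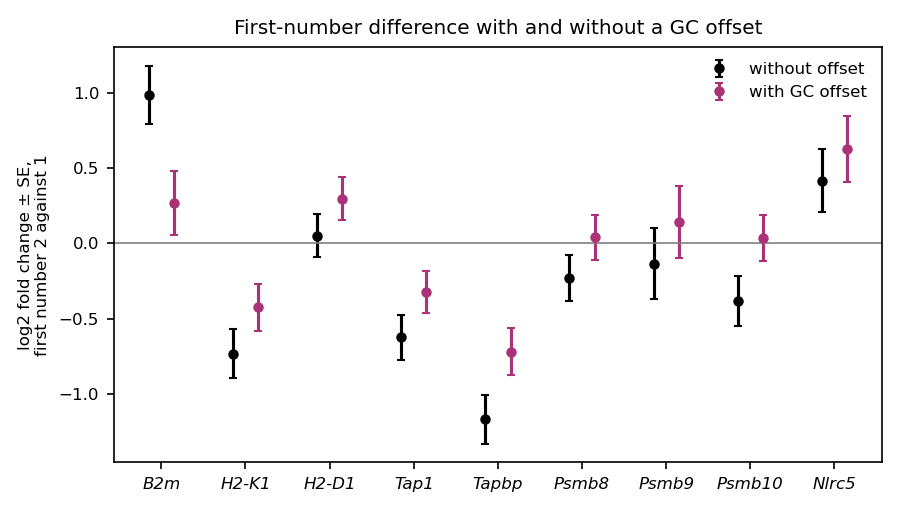
Log2 fold changes of first number 2 against 1 with their SE are plotted for the 9 tested genes without and with an offset for exon GC content. B2m goes from 0.99 to 0.27 and Tapbp from -1.17 to -0.72.

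The wider pathway was read from a list of 42 further genes of class I processing, which holds non-classical class I molecules, chaperones, peptidases and regulators. Of its 40 genes in the table, 35 were tested. In KI against WT 0 passed in either direction, 4 had an unadjusted p under 0.05, and the median log2 fold change was 0.10 beside 0.02 over all genes. Named here are the 2 genes with the smallest p in each direction, none of which passed edgeR's test. Upward they were the non-classical class I gene H2-T22 at 0.87 and the proteasome activator subunit Psme2 at 0.49. Downward they were H2-T24 at -1.46 and the chaperone calnexin (Canx) at -0.72. The H2-T24 value rested on 3 to 33 counts per library in WT and 1 to 19 in KI. The adjusted p of these named genes lay between 0.914 and 0.919. Canx was not among the genes with an unadjusted p under 0.05 (edgeR p 0.0536), so the 2 sets are not the same. Of the 14 subunits of the core proteasome 0 passed, and 2 had an unadjusted p under 0.05, Psmb6 at 0.49 and Psmb5 at 0.47, the counterparts of Psmb9 and Psmb8. Psmb5 stood at 0.91 among libraries of first number 1 and 0.05 among those of first number 2, and the interaction of -0.86 had an edgeR adjusted p of 0.649.

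In first number 2 against 1, 6 of the 35 pathway genes passed (17.1%, beside 16% of all tested genes), 5 of them higher, a share near the background. These were the lipid-presenting Cd1d1 at 1.81, the class I and class II regulator Rfx5 at 2.24, the proteasome activator Psme4 at 1.66, the chaperone Hspa5 at 0.80 and the peptidase Tpp2 at 1.45. The proteasome activator subunit Psme1 was lower, from a mean of 1146 CPM to 667 CPM, at -0.78 ± 0.14 (SE, edgeR adjusted p 0.00078). With the GC offset Cd1d1 (edgeR adjusted p 0.0487) and Rfx5 (0.0477) remained past the threshold, and Psme4, Hspa5, Tpp2 and Psme1 did not. With the offset 4 of the 35 genes passed (11.4%, beside 5.97% of all genes), among them Pdia6 (-0.70), which was chosen for naming after its value was known. The call of Rfx5 was lost without KI 2-1 (edgeR adjusted p 0.0527), and those of Psme4, Hspa5 and Tpp2 were lost when any 1 of 6, 7 and 6 libraries, respectively, was left out. Rfx5 rested on at most 8 counts per library in first number 1, Psme4 on at most 15 and Cd1d1 on at most 25. Of the 14 core subunits, Psma6 (0.82), Psma1 (0.93) and Psma5 (0.83) were higher and Psma7 (-0.65) was lower, 4 of 14 (28.6%) beside 16% of all tested genes. With the GC offset 2 of 14 passed (14.3%, beside 5.97%), Psma5 higher and Psmb1 lower at -0.58 (edgeR adjusted p 0.0206). Psmb1 was named after its values were seen.

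The joint level of the 9 tested genes, taken as the mean of their standardised log2 CPM, ran from -0.72 in WT 2-2 to 0.71 in KI 1-3. Within first number 1 the KI libraries stood at 0.29, 0.66 and 0.71 and the WT libraries at -0.17, -0.17 and 0.18. Within first number 2 the KI libraries stood at 0.52, -0.49 and 0.14 and the WT libraries at -0.61, -0.72 and -0.34. KI 2-2 and KI 2-3 lay within the range of the 6 WT libraries, KI 2-3 below WT 1-3 alone. The other genes whose log2 CPM followed this level most closely over the 12 libraries were Hspa8 (Pearson r 0.93), Cd6 (0.92), Nfatc1 (0.90), Dtx1 (0.89) and Cdk4 (0.89), out of 7533 ranked. These are descriptions over libraries that share depth, base composition and first number.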

How the data were processed

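The authors deposited raw read counts per gene for 12 libraries, and FPKM values, which scale fragments by transcript length and depth. Per the submitters' processing notes CASAVA, TopHat2, Cufflinks, HTSeq, DESeq2 and the mm9 build were used; versions, annotation and use of strand are not given in the sources used here. Genes and lists were chosen with earlier results of these data known. Counts were analysed with edgeR 4.0.16 in R 4.3.3: filterByExpr by genotype kept 7542 genes, TMM scaling, quasi-likelihood F tests, Benjamini-Hochberg adjustment over all tested genes, threshold 0.05. Models held genotype alone, genotype with first number, or their interaction. Ratios (0.5 counts added) and Tap2 were compared by exact permutation over libraries (scipy 1.17.1). No pair of libraries of 1 genotype agreed within sampling noise (chi-square per degree of freedom 8.58 to 37.0). Exon GC content and loci come from NCBIM37, the assembly behind mm9, with GENCODE vM1. Genes named beyond the 10 are list genes past the threshold (at most 6 a direction), otherwise the 2 with the smallest p, and the 5 genes most like the joint level. A further list gene is not reported here. Repeated names in the FPKM table, 27 of them, were summed. Alternatives covered scaling, DESeq2 1.42.0, limma 3.58.1 on voom or on log2(FPKM + 1 or 0.1), filters, blocks, subsets and each library left out. The fits were tested on simulated counts. Precision is limited by depth and by amplification, since amplified reads are not independent molecules.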

Additional observations from a re-analysis of the deposited data

How the results depend on the processing

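No class I or immunoproteasome gene was called in KI against WT under any of the 28 alternatives, and the 4 calls between first numbers held when any single library was left out. Over all genes, KI against WT gave 2 calls, and 11 with DESeq2, 1 with voom, 4 without a filter, 0 with either FPKM pseudocount, 1 in first number 2 alone, 0 without WT 1-3 and KI 2-1, and 0 to 2 with 1 library left out (2 without WT 2-1 or WT 2-2, 1 without WT 2-3 or KI 2-2, and 0 without any other). The first number as a replicate block gave 4 calls, also with the GC offset. After each genotype's mean was subtracted from every gene's log2 CPM, same-numbered WT and KI libraries correlated at 0.083 to 0.258. Of these, 2 of 6 did so best with their own number. The mean r was 0.166 between WT and KI libraries of the same first number and -0.165 between those of different first numbers. With first-number means also removed, same-numbered libraries had a mean r of -0.0049, so they were not treated as pairs. First number 2 against 1 gave 1208 calls, and 782 on FPKM with pseudocount 0.1, 359 in WT alone, 382 in KI alone, 450 with the GC offset, 449 with GC and length, and 761 to 1244 with 1 library left out (lowest without KI 2-2). Of the 9 genes, 4 were called, but 2 in WT alone, 2 in KI alone, and 1 with either offset. The interaction gave 0 calls, and 7 with DESeq2, 140 without a filter, 1 on FPKM with pseudocount 0.1, and 0 to 24 with 1 library left out (24 without WT 1-1). The cause was not tested.

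B2m in KI against WT changed sign to -0.028 with voom, -0.016 with the first number and -0.024 with both numbers as a replicate block, -0.40 in first number 1, -0.19 without WT 1-3 and KI 2-1, and ran from -0.16 to 0.25 with 1 library left out (below 0 without WT 1-1, KI 2-1 or KI 2-3). Tap2 ran from -0.26 to 0.45 with 1 library left out in KI against WT and from -1.76 to -1.16 between first numbers. Psma4 in KI, -0.23, was 0.14 in first number 2. Between first numbers H2-D1 ran from -0.0095 (without KI 2-1) to 0.11, the Psmb8 to Psmb5 ratio ran from -0.40 to -0.24 and passed without KI 1-2 (exact permutation, adjusted p 0.0404), and Psmb8, Psmb9 and Psmb10 were 0.040, 0.14 and 0.034 with the GC offset and 0.053, 0.15 and 0.0014 with GC and length.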
